A study of Mus musculus with 4 samples.

Results

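The ABC transporter family is described here in mouse cells labelled hepatocyte-like. Its members were taken as the protein-coding rows of the count tables whose symbol is Abc followed by a subfamily letter from a to g, a number and at most 1 further letter. In all, 50 of the 19948 protein-coding rows met this rule: 16 of subfamily a, 10 of b, 10 of c, 4 of d, 1 of e, 3 of f and 6 of g. RNA came from 4 cultures grown separately from the embryonic stem cell line E14TG2a, which is known to lack a working Hprt gene, and treated with the advanced hepatic-inducing cocktail (A-HIC). All 4 come from that 1 line, and there is no untreated or hepatocyte group among them, so levels are described and no change is tested. The cultures are called libraries 1 to 4 after the labels' replicate numbers.

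ABC proteins carry a domain that binds and splits ATP, and most of them use that energy to move a substrate across a membrane. In the liver, members on the canalicular face of the hepatocyte push bile salts, phospholipid, sterols and conjugated drugs into bile, while others on the basolateral face return conjugates to blood. Mitochondria, peroxisomes and lysosomes hold members of their own. The e and f subfamilies have the ATP-binding domains but no membrane-spanning part, and act on ribosomes and translation.

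The libraries held 29.5 to 40.2 M counts, and the libraries differed from each other by more than sampling noise. Levels are given in TPM (counts divided by gene length and scaled to a fixed library total). Expressed means that every one of the 4 libraries reached 1 TPM. The label was checked against markers. Of 10 hepatocyte markers 1 was expressed, Ttr, and Cyp7a1 had 0 counts. Libraries differed here: Fgb stood at 1.14, 6.13, 0.667 and 2.92 TPM and Apoa1 at 0.705, 8.53, 1.03 and 3.57 TPM. Alb stood at 7.19 TPM in library 2 and under 1 TPM elsewhere. The hepatocyte markers not named here stayed under 1 TPM in every library. All 6 pluripotency markers with a known length were expressed, with summed levels of 6652, 3431, 5966 and 4410 TPM in libraries 1 to 4. The marker data therefore go against the label. All 8 parietal endoderm markers and all 6 fibroblast markers were expressed as well. So were 5 of 6 cholangiocyte, 4 of 5 endothelial and 3 of 5 macrophage markers, where 63.3% of all protein-coding rows met the same rule. In bulk RNA, fewer cells of a type and less RNA per cell cannot be told apart.

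The family was lower than protein-coding genes as a whole, and a few members held most of its RNA. Expressed members numbered 25 of 50, where 63.3% of all protein-coding rows met the same rule. Another 4 had 3 counts or fewer in every library (16.9% of all protein-coding rows), and 21 lay in between. These shares of all protein-coding rows, 63.3% and 16.9%, also stand beside the group counts below. The median of the mean log2(TPM + 0.1) was 0.48 over the 50 members and 2.90 over all protein-coding rows. Together the family took 0.202% ± 0.00549 of all counts (SD, n = 4), and its summed level was 1380, 1429, 1477 and 1447 TPM in libraries 1 to 4.

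**Figure D1:**
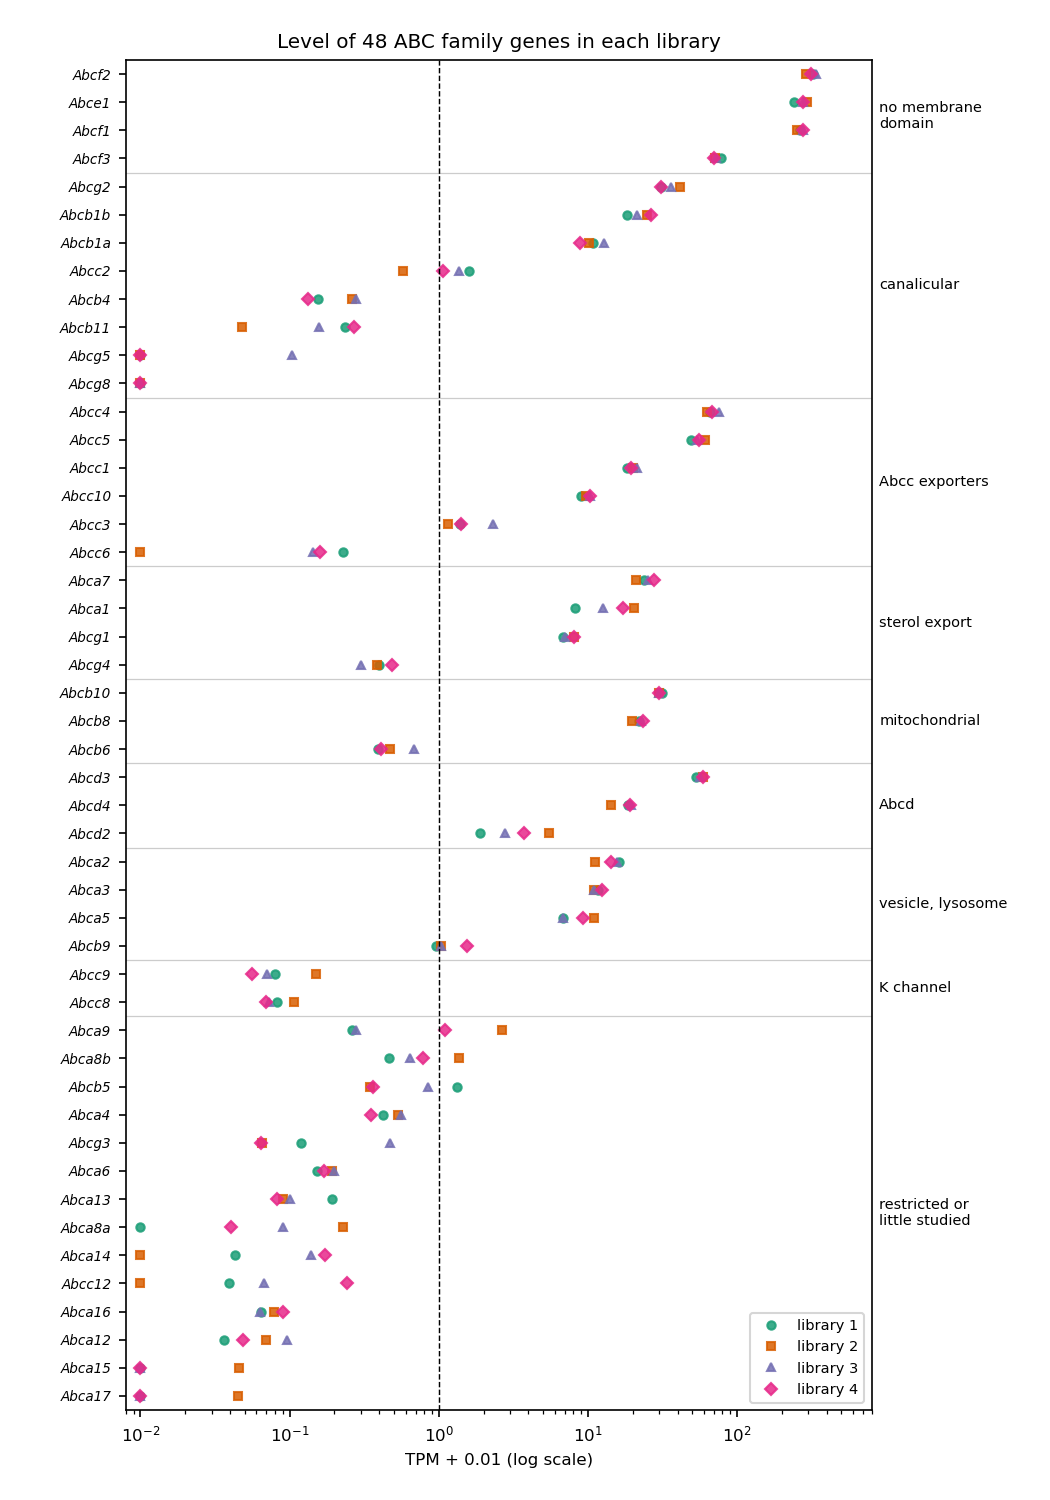
Level of 48 of the 50 members in libraries 1 to 4, as TPM + 0.01 on a log axis, grouped by role and sorted by mean within a group. Each symbol is 1 library and the dashed line marks 1 TPM. The 4 members without a membrane domain sit highest by mean TPM. No member of the last 2 groups is above the line in all 4 libraries.

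The highest members were not transporters. The 4 members without a membrane domain, all expressed, made up 65.0% of the family's summed TPM, a share that depends on the gene lengths. Abcf2, whose yeast counterpart acts in ribosome assembly, stood at 324, 293, 340 and 312 TPM in libraries 1 to 4. Abce1, the ATPase that splits ribosomes for recycling after termination, stood at 243, 294, 276 and 277 TPM. Abcf1, which binds the initiation factor eIF2, had 265, 254, 276 and 278 TPM. By TPM, Abce1 overlapped both other genes, while every library of Abcf2 was above every library of Abcf1. That order rests on the gene lengths. By CPM (counts scaled to library size, without length) it was reversed, with means of 430 for Abce1, 311 for Abcf1 and 215 for Abcf2. By CPM no library of Abce1, Abcf1 or Abcf2 overlapped those of another of these genes. These 3 were the only members with a mean of 100 TPM or more, a level reached by 10.3% of protein-coding rows. Abcf3, related to a yeast protein of amino acid sensing, was lower at 78.4, 71.6, 72.7 and 69.9 TPM, with every library below theirs. By CPM the mean of Abcf3, 68.5, was below those of the membrane transporters Abcc5 and Abcc4, at 154 and 115. Partners of Abce1 in ribosome rescue and recycling were all expressed (7 of 7), from Pelo, which recognises stalled ribosomes, at 6.04 ± 0.698 TPM to Eif3j2 at 89.5 ± 4.82 TPM (SD, n = 4). Eif3j1 and Eif3j2 are near-identical copies, so the split of reads between them is uncertain. The promoter of Abce1 is shown as that of the second highest member by mean TPM. It runs from 250 bases before to 50 bases after the RefSeq start (build GRCm38.p6, which is not the build of the counts). The bases are given 5′ to 3′ with each CpG dinucleotide in capitals.
Abce1, chr8:79711691-79711990, minus strand: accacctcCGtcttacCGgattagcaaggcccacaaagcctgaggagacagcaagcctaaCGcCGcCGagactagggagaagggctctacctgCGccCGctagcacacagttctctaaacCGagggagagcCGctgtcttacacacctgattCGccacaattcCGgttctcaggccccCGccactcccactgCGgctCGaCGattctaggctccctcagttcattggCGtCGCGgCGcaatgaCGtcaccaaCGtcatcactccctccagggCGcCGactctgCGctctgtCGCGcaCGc

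Members that serve the bile canaliculus separated into expressed drug exporters and near-silent bile exporters. Of 8, 3 were expressed and 2 were not detected, against 63.3% and 16.9% of all protein-coding rows. With a mean of 1 TPM as the rule, or without library 2, 4 of the 8 were expressed. Abcg2, an exporter of urate, porphyrins and drugs whose dye efflux marks stem cell side populations, stood at 31.1, 41.4, 36.1 and 31.2 TPM. Abcb1b and Abcb1a, the mouse pair of P-glycoproteins that expel hydrophobic drugs, are given next. Abcb1b stood at 18.4, 25.0, 21.4 and 26.7 TPM. Abcb1a stood at 10.9, 10.1, 12.9 and 8.85 TPM. The pair did not overlap, with Abcb1b higher in 4 of 4 libraries, but the copies are alike in sequence and the treatment of reads that fit both is not given in the sources used here. Smaller overlaps with other annotated genes cover 10.1% of the exon bases of Abcb1a, 10.3% of those of Abcb10 and 9.75% of those of Abca3, and the libraries keep no strand.

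Bile exporters proper were at or near 0. Abcb11, the bile salt export pump, had 12, 2, 6 and 14 counts, which came to 0.168 ± 0.0988 TPM (SD, n = 4). Abcb4, which flips phosphatidylcholine into bile, had 14, 24, 20 and 12 counts, or 0.198 ± 0.0747 TPM. Abcg5 and Abcg8 form the heterodimer that exports sterols into bile: Abcg8 had 0 counts in every library and Abcg5 had 2 counts, both in library 3. A count of 0 allows up to 3 counts, which is 0.0747 to 0.102 CPM (counts scaled to library size). If each read end was counted, that becomes 6 counts, or 0.149 to 0.203 CPM, and both limits cover counting error only. Abcc2, the canalicular exporter of bilirubin glucuronides, was intermediate at 1.59, 0.566, 1.36 and 1.06 TPM, and library 2 alone fell under 1 TPM. These 4 low genes and Abcc2 were thus below every library of Abcb1a, Abcb1b and Abcg2.

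Promoters of this group are shown because neighbouring genes with opposite levels can be read side by side. Abcb1a, Abcb1b and Abcb4 follow each other on chromosome 5, and the windows of Abcg5 and Abcg8, which start back to back on chromosome 17, share 209 bases, so 1 of that pair is given. CpG dinucleotides are again in capitals.
Abcb11, chr2:69342567-69342866, minus strand: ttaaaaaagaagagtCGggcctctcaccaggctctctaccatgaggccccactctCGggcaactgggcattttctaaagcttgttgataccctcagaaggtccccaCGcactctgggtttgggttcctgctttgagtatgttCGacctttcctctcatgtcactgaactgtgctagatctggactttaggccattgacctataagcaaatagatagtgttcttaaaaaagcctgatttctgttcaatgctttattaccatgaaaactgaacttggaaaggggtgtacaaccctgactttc
Abcg8, chr17:84682871-84683170, plus strand: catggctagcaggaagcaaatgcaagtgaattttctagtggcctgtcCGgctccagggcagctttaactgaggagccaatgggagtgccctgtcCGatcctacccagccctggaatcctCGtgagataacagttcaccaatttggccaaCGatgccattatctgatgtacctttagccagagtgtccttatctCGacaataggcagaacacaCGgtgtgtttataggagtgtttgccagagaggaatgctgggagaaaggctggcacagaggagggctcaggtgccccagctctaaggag
Abcb1a, chr5:8566841-8567140, plus strand: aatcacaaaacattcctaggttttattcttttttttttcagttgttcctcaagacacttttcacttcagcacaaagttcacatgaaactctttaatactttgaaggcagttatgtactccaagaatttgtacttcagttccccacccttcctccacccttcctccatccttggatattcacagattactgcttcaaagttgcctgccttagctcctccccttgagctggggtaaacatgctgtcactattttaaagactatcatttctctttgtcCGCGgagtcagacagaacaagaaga
Abcb1b, chr5:8797897-8798196, plus strand: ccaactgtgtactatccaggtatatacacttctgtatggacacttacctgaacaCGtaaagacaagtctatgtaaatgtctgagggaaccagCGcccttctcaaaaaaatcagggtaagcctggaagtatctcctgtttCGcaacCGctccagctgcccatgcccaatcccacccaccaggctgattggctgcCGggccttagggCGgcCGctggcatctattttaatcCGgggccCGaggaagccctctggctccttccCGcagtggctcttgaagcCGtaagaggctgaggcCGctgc
Abcb4, chr5:8893471-8893770, plus strand: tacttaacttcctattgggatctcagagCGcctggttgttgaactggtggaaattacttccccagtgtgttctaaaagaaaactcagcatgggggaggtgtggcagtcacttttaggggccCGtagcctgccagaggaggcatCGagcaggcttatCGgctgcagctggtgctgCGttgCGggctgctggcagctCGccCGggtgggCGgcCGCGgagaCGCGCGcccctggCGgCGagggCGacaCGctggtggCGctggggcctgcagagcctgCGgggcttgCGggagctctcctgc
The Abcb1a window held 2 CpG, the Abcb1b window 12 and the Abcb4 window 21. The order of CpG content in this trio was therefore not the order of the levels, since the near-silent Abcb4 had the most.

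Carriers that load the hepatocyte were also scarce, while receptors that act on its exporters were mixed. Of 6 uptake carriers 1 was expressed, Slc22a7, an organic anion carrier, at 7.12 ± 3.55 TPM (SD, n = 4). Slco1a4 had 0 counts, and Slc10a1, the bile salt importer and named with its values known, had 14, 14, 3 and 4 counts. Among 7 receptors, Rxra, the common dimer partner, was highest at 33.7 ± 1.59 TPM and Nr1i3 lowest at 0.0218 ± 0.0252 TPM, with 3 of 7 expressed. Besides Rxra these were Hnf4a at 5.43 ± 1.45 TPM and Ppara at 1.37 ± 0.250 TPM, both named with their values known. Nr1h4, the bile acid receptor that acts on Abcb11, stood at 1.09, 1.03, 0.386 and 0.917 TPM, a gene named with its values known.

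Abcc exporters of the basolateral and other plasma membranes were mostly present, with 5 of 6 expressed. Abcc4, an exporter of cyclic nucleotides and bile acids, was by TPM the highest membrane transporter of the family at 66.6, 63.1, 76.1 and 67.8 TPM. Abcc5, another exporter of cyclic nucleotides, stood at 49.2, 60.7, 53.9 and 56.1 TPM. Abcc1, which exports glutathione conjugates, stood at 18.5, 20.0, 21.5 and 19.6 TPM, and its 4 libraries lay within a ratio of 1.16 of each other. Abcc10, a drug exporter, stood at 9.04, 9.75, 10.4 and 10.3 TPM. Those 4 genes kept the same order by TPM in every library. By CPM, without length, Abcc5 was above Abcc4 in every library, with means of 154 and 115 CPM. Abcc3, the basolateral exporter of glucuronides in hepatocytes, was far lower at 1.38, 1.14, 2.30 and 1.40 TPM. Abcc6, whose loss causes ectopic calcification, had 13, 0, 6 and 9 counts, a mean of 0.126 ± 0.0920 TPM (SD, n = 4).

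**Figure D2:**
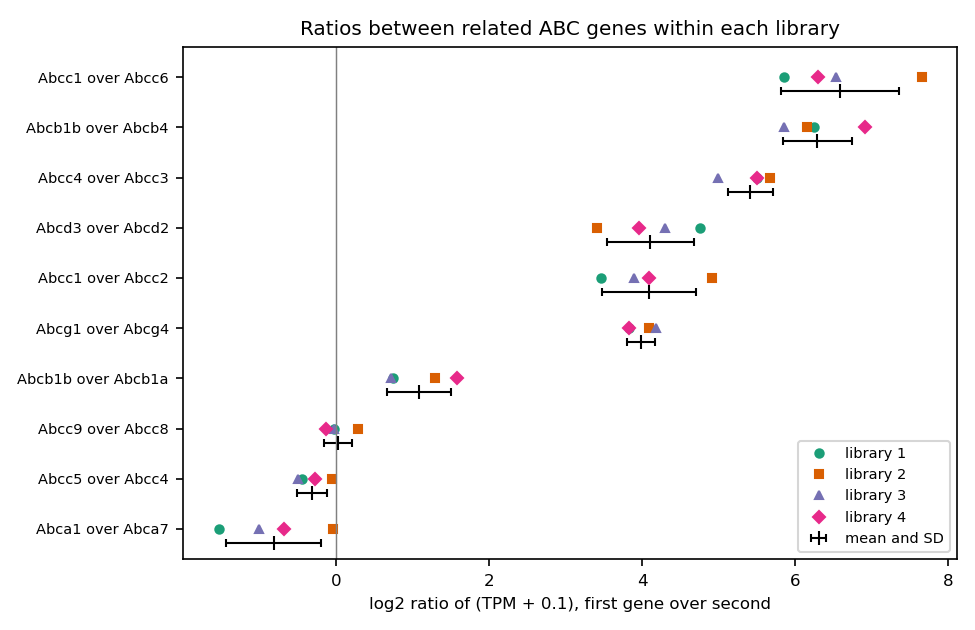
Log2 ratio of (TPM + 0.1) between related members within each library, first gene over second, with the mean and SD over the 4 libraries as a black bar. In 7 of the 10 pairs shown all 4 libraries lie right of 0, whereas Abcc5 over Abcc4 and Abca1 over Abca7 lie left of 0 and Abcc9 over Abcc8 crosses it.

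Ratios between related members put numbers on these differences. An exact sign-flip test over 4 libraries is two-sided and cannot give a p below 0.125, so no pair can pass a threshold of 0.05. No ratio was taken for Abcg5 and Abcg8, which were both at the floor. Abcc1 exceeded Abcc2 by a log2 ratio of 4.09 ± 0.61 (SD, n = 4) and Abcc4 exceeded Abcc3 by 5.41 ± 0.29, each in 4 of 4 libraries (exact p = 0.125). Abcb1b exceeded Abcb4 by 6.29 ± 0.45 and Abcb1a by 1.09 ± 0.42. Thus the liver-enriched partner was the lower gene in the first 3 of these ratios. Abcc5 over Abcc4 was -0.32 ± 0.20, below 0 in 4 of 4 libraries, and rests on the gene lengths, since per library size alone, without length, it became 0.43. Ratios over low genes rest on the pseudocount of 0.1 TPM. With a pseudocount of 1 they became 3.31 for Abcc1 over Abcc2, 4.78 for Abcc4 over Abcc3 and 4.30 for Abcb1b over Abcb4. Abcc1 over Abcc6, at 6.58 ± 0.77, became 4.21, and Abcc6 had 0 counts in library 2.

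Sterol and phospholipid exporters were expressed in 3 of 4 cases. Abca7, a phospholipid exporter related to Abca1, stood at 23.9, 20.99, 25.3 and 27.7 TPM. Abca1, which hands cholesterol to lipid-poor apolipoprotein, stood at 8.20, 20.4, 12.6 and 17.3 TPM, lower in library 1 and higher in libraries 2 and 4. Abcg1, which delivers cholesterol to lipoprotein particles, was even at 6.86, 8.04, 7.02 and 8.13 TPM. Its brain-enriched relative Abcg4 was near-silent at 0.390, 0.378, 0.293 and 0.479 TPM, and the log2 ratio of Abcg1 over Abcg4 was 3.98 ± 0.18 (SD, n = 4; exact sign-flip p = 0.125), or 2.62 with a pseudocount of 1. Abca1 over Abca7 averaged -0.81 ± 0.62, but was -0.039 in library 2 and -1.53 in library 1. It rests in part on the gene lengths: with CPM, without length, it averaged -0.20. In library 2 Abca1 was then the higher gene, at 53.5 CPM against 35.8 CPM.

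Of 8 sterol-sensing genes 7 were expressed, the highest being Insig1 at 284 ± 59.3 TPM (SD, n = 4). The gene not expressed was Nr1h3, a liver X receptor that drives Abca1 and Abcg1, at 0.589 ± 0.132 TPM. The sister receptor Nr1h2, named with its values known, stood at 70.3 ± 10.5 TPM. Among 5 genes for lipoprotein acceptors, Apoe was at 609 ± 21.9 TPM and Apoa4 at 0.141 ± 0.132 TPM, and 2 were expressed. Apoa1, the usual acceptor for Abca1 and named with its values known, had 0.705, 8.53, 1.03 and 3.57 TPM, highest in libraries 2 and 4 like Abca1.

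Mitochondrial members were expressed in 3 of 4 cases. Abcb10, linked to heme synthesis, stood at 31.4, 30.3, 30.2 and 30.1 TPM, a highest over lowest ratio of 1.04. Abcb8 stood at 22.1, 19.8, 22.6 and 23.3 TPM, below Abcb10 in every library. Abcb6, a porphyrin transporter, had only 21, 25, 28 and 22 counts, a mean of 0.478 ± 0.132 TPM (SD, n = 4). That level is uncertain: in the GENCODE M21 annotation 55.2% of its exon bases are shared with a transcript on the same strand, Gm29253, which had 0 counts in every library, and how reads on shared bases were counted is not given in the sources used here. All 14 listed genes of iron-sulfur and heme synthesis were expressed, from Uros at 6.34 ± 0.980 TPM to Hscb at 75.9 ± 13.6 TPM.

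Subfamily d was expressed as a whole, 4 of 4. Abcd3, which brings bile acid intermediates and branched fatty acids into peroxisomes, led at 53.2, 59.5, 56.3 and 59.2 TPM. Abcd4, which works in lysosomal release of vitamin B12, stood at 18.5, 14.4, 19.5 and 19.1 TPM. Abcd2, a peroxisomal importer of fatty acids, was lower and less even at 1.87, 5.48, 2.76 and 3.71 TPM. The log2 ratio of Abcd3 over Abcd2 was 4.11 ± 0.56 (SD, n = 4; exact sign-flip p = 0.125) and was lowest in library 2. Of the listed peroxisome biogenesis genes 12 of 12 were expressed, where 63.3% of all protein-coding rows met the same rule. The highest was Pex19, the chaperone of peroxisomal membrane proteins, at 94.9 ± 2.49 TPM (SD, n = 4).

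Among members of intracellular vesicles and lysosomes, 3 of 4 were expressed. Abca2, a lysosomal protein abundant in myelinating cells, stood at 16.1, 11.1, 15.8 and 14.3 TPM. Abca3, which fills the lamellar bodies of the lung with surfactant lipid, stood at 11.6, 11.0, 11.0 and 12.5 TPM. Its neighbour Abca17, which lies next to it on chromosome 17, had counts in library 2 alone, 2 of them. Abcb9, a lysosomal peptide transporter, straddled the threshold at 0.951, 1.02, 1.02 and 1.54 TPM. Its relatives in antigen presentation, which the symbol rule leaves out, were Tap1 at 14.8 ± 2.78 TPM and Tap2, named with its values known, at 5.20 ± 1.53 TPM (SD, n = 4). Cftr, the chloride channel of subfamily c, was lowest of the 3 ABC genes under other symbols at 0.108 ± 0.0249 TPM.

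Neither regulator of ATP-sensitive potassium channels was expressed. Abcc8, the sulfonylurea receptor of pancreatic beta cells, had 6, 8, 4 and 5 counts and Abcc9, its counterpart in muscle, had 6, 12, 4 and 4. Their log2 ratio was 0.030 ± 0.18 with opposite signs between libraries (SD, n = 4; exact sign-flip p = 1). The pore subunits were low too: Kcnj8 averaged 1.18 ± 1.26 TPM, with library 2 at 3.05 TPM and the others between 0.342 and 0.698 TPM, and Kcnj11 averaged 0.210 ± 0.0853 TPM.

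The remaining 14 members are restricted to other tissues or little studied, and none was expressed. Examples named with their values known are Abca4 of photoreceptors at 0.457 ± 0.0968 TPM and Abca12, a lipid transporter of the skin, at 0.0527 ± 0.0261 TPM (SD, n = 4). Abca15 and Abca17 had 2 counts each, all in library 2, and Abca17 was the lowest of the group. A group of 5 a-subfamily genes, Abca8b, Abca8a, Abca9, Abca6 and Abca5, lies side by side on chromosome 11, and they did not share a level. Abca5, a lysosomal member counted above, stood at 6.82, 11.0, 6.83 and 9.33 TPM. Abca9 stood at 0.253, 2.67, 0.268 and 1.10 TPM, and its mean of 1.07 TPM became 0.540 TPM without library 2. Abca8b stood at 0.457, 1.37, 0.633 and 0.776 TPM. Abca8a had 0, 14, 4 and 2 counts and Abca6 had 8, 10, 8 and 9. Library 2 was the highest for Abca5, Abca9, Abca8b and Abca8a. The promoters of Abca9 and Abca5 are shown as those of the most variable and of the highest gene of this run, with CpG in capitals.
Abca9, chr11:110168104-110168403, minus strand: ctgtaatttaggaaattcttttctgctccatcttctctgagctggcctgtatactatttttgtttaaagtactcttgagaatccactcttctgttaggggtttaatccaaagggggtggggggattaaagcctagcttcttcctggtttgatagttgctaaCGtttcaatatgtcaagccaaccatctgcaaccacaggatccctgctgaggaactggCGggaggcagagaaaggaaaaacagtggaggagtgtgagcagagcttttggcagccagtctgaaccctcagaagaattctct
Abca5, chr11:110337667-110337966, minus strand: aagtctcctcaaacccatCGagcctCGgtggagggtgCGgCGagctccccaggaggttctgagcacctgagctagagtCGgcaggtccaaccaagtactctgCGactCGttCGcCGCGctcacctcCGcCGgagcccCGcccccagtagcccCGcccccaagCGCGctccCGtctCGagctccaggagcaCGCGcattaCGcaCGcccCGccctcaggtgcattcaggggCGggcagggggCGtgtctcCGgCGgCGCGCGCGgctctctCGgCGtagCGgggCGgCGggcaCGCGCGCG
The window of Abca9 held 2 CpG and that of Abca5 held 40.

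Over the family, promoters of expressed members were richer in CpG, as they were over all genes. RefSeq windows were found for 38 of the 50 members. The 17 expressed members had a median of 26 CpG per 300 bases, ranging from 2 to 45, and the 21 others a median of 9, ranging from 1 to 23. Over all protein-coding rows with a window the medians were 21 for the 10013 expressed and 4 for the 5335 others. Members that depart from this pattern include Abcg2 and Abcb1a, expressed with 3 and 2 CpG. On the other side are Abcb4, Abca14, Abca17 and Abcb9, not expressed with 21, 22, 21 and 23. For Abcg2 RefSeq lists 3 starts, whose windows held 3, 10 and 28 CpG, and the counts do not show which start was used. Other members with several starts include Abcg8 (6 and 21 CpG), Abcc4 (41 and 6) and Abcc10 (17 and 1). Taking the richest window of each gene gave medians of 27 and 10, an alternative chosen after seeing the data.

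**Figure D3:**
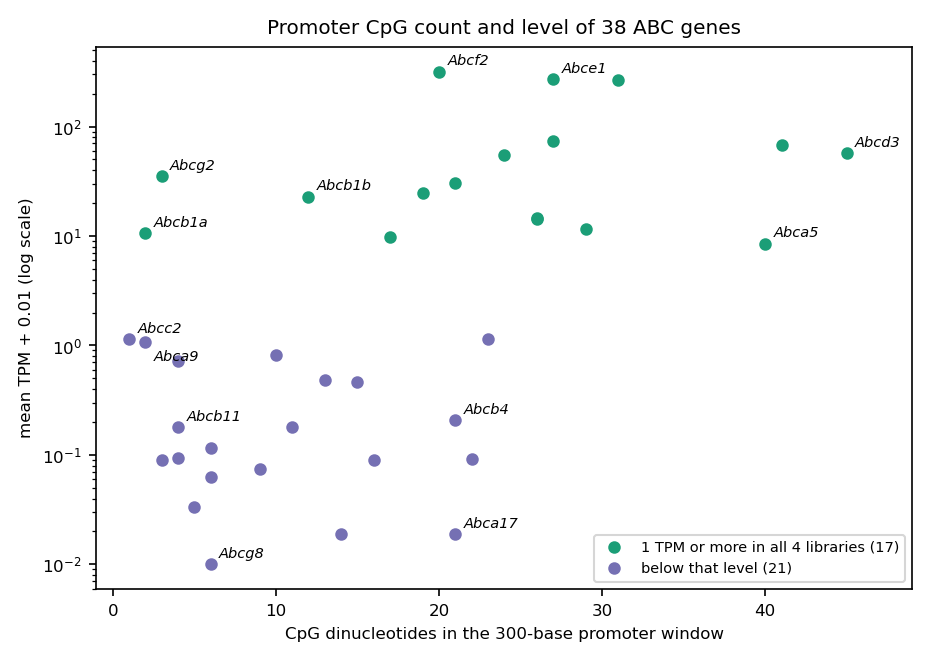
CpG dinucleotides in the 300-base promoter window (x axis) against mean TPM + 0.01 on a log axis (y axis) for the 38 members with a RefSeq window, coloured by whether they were expressed. Members with more than 23 CpG were all expressed, while Abcg2 and Abcb1a were expressed with 3 and 2.

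Short motifs were searched on both strands of the first window. The letters TATAAA were present in 6 of the 38 windows (Abcb6, Abca4, Abca1, Abcg2, Abcg5 and Abcg8) and in 14.2% of all 27025 promoters, and for Abcg5 and Abcg8 the match may be the same letters of their shared stretch. CCAAT was present in 14 of 38 and in 37.9% of all. A match describes letters and not a site, and its absence says only that these letters are not in the window.

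Spread between cultures was similar to that of other genes for most of the family. Over the 30 members with a mean of 1 CPM or more, the median SD of log2(CPM + 1) between libraries was 0.17, as it was over the 13079 protein-coding rows past the same filter. An SD above 0.5 was reached by 3 of the 30 members and by 4.72% of those rows. The edgeR biological coefficient of variation had a median of 0.157 over 35 members and 0.161 over protein-coding rows. Abcd3 varied least of the 30, with an SD of 0.03.

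**Figure D4:**
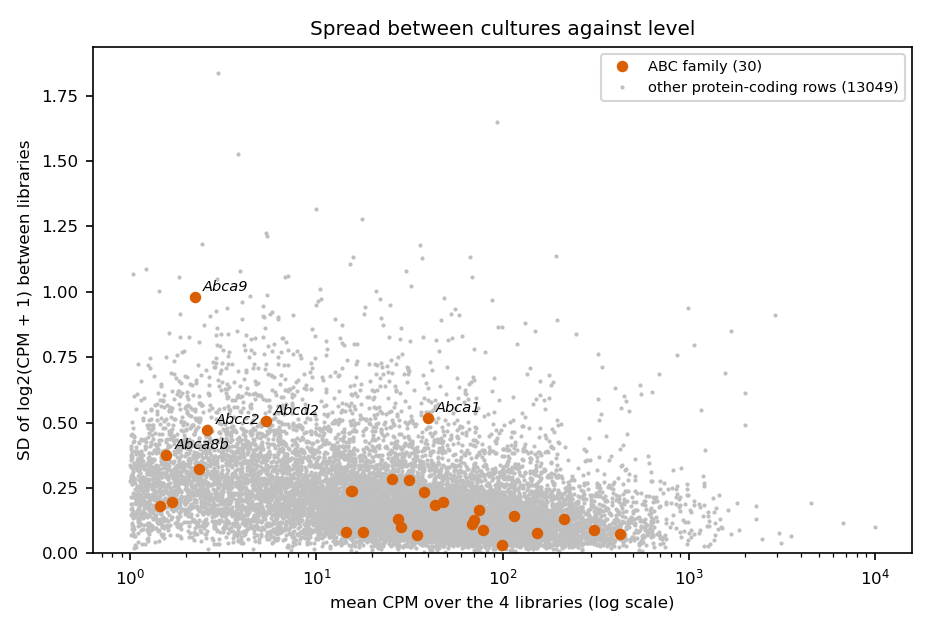
SD of log2(CPM + 1) between the 4 libraries (y axis) against mean CPM on a log axis (x axis), for 30 ABC members (orange) and all other protein-coding rows with a mean of 1 CPM or more (grey). Most members lie within the grey cloud, and Abca9, Abca1 and Abcd2 are the 3 with an SD above 0.5.

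Among those 30, the 5 most variable were Abca9, Abca1, Abcd2, Abcc2 and Abca8b, with SDs of 0.98, 0.52, 0.51, 0.47 and 0.38. Abca9, Abca1, Abcd2 and Abca8b were highest in library 2 and next highest in library 4, whereas Abcc2 was lowest in library 2 and highest in library 1. Abcb5, left out of that order by a mean of 0.836 CPM and named with its values known, had an SD of 0.44. Its levels were 1.33, 0.337, 0.842 and 0.351 TPM, highest in library 1. Summed parietal endoderm markers (8 of 8 expressed) came to 2778, 8934, 3357 and 6879 TPM. Summed fibroblast markers (6 of 6) came to 1948, 3632, 1692 and 2777 TPM. The hepatocyte markers (1 of 10 expressed, Cyp7a1 at 0) came to 7.27, 53.2, 7.97 and 24.1 TPM. Pluripotency markers (6 of 6 with a length), given above, ran the other way, with the lowest sum in library 2. The part of these cell types in the values of the 5 genes was not tested.

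**Figure D5:**
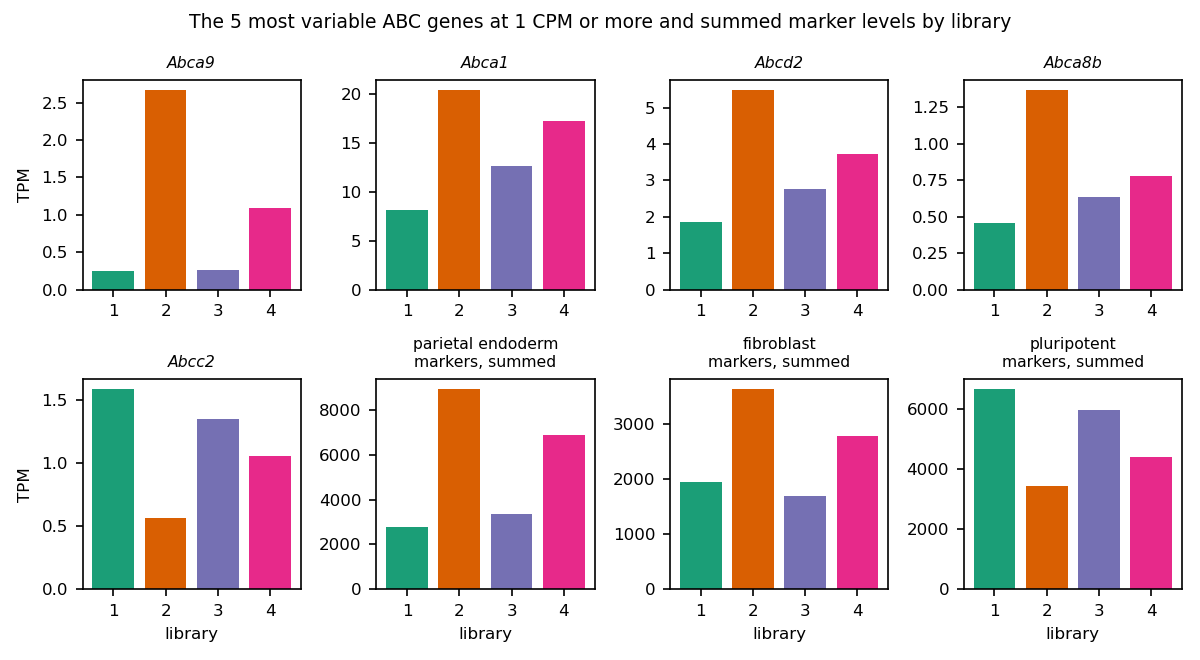
TPM of the 5 most variable of the 30 members that averaged at least 1 CPM, with the summed TPM of parietal endoderm, fibroblast and pluripotency markers in libraries 1 to 4, as bars from 0. Library 2 is the highest bar for Abca9, Abca1, Abcd2 and Abca8b and for the first 2 marker sets, and the lowest for Abcc2 and the pluripotency markers.

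Each library was then set against the other 3 with edgeR's quasi-likelihood test over all 17398 rows that passed its filter, 35 members among them. The lone library was assumed to vary like the others. Libraries 1 and 3 were nearest each other in counts (chi-square per degree of freedom 10.7), as were 2 and 4 (17.3). Other pairs ranged from 28.7 to 70.4. Each lone library thus had its nearest library among the other 3, so an absence of calls does not show that cultures agree. In the fits below that leave out a library, calls were made only where that nearest library was left out. At an adjusted p under 0.05 no member was called in any of the 4 comparisons, and neither was any other row (0%). At an unadjusted p under 0.05, 3 members passed for library 1 (5.32% of all rows), 7 for library 2 (7.38%) and 0 for libraries 3 and 4 (1.57% and 1.55%). Abca1 had 23.2 CPM in library 1 against a mean of 44.9 CPM in the other 3, a log2 fold change of -1.01 ± 0.29 (SE; edgeR adjusted p = 0.723). Abca9 had 5.43 CPM in library 2 against 1.14 CPM in the other 3, a log2 fold change of 2.29 ± 0.75 (SE; edgeR adjusted p = 0.626). Abcc2 had 1.22 CPM in library 2 against 3.04 CPM in the other 3, a log2 fold change of -1.24 ± 0.44 (SE; edgeR adjusted p = 0.626). DESeq2 at an adjusted p under 0.05 called 0 members in each comparison, where it called 0.0719%, 0.446%, 0.0102% and 0.0102% of all rows it adjusted for libraries 1 to 4. Some fits with fewer libraries or no filter made calls (edgeR adjusted p under 0.05). The share of all rows called by the same fit is given with each. Leaving out library 3 gave 6 of 35 members for library 1 (12.4% of all rows): Abca1, Abcb1b, Abca9, Abca5, Abcb5 and Abcd2. For library 2, leaving out library 4 gave 7 of 35 (14.4% of all rows): Abca2, Abca1, Abca8b, Abca9, Abca5, Abcd2 and Abcc2. Abca1, Abca9 and Abca5 were called for library 3 once library 1 was left out (7.35% of all rows), and Abca1 and Abca9 for library 4 once library 2 was (7.8%). With the filter dropped, Abca1 and Abca9 were called for library 1 (2 of 49 members, 0.836% of all rows) and Abca9 for library 2 (1 of 49, 1.19%).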

How the data were processed

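Polyadenylated RNA from 4 cultures was sequenced from both ends in libraries that keep no strand, per the labels' protocols. The deposited files hold raw counts per gene, and the submitters' processing notes name STAR, featureCounts and the build GRCm39 (mm39). The sources used here give neither their versions nor the annotation, nor how reads were assigned. Among counts from 1 to 8, even numbers made up 60% to 62.6% in a library, so counts may be of read ends and not of pairs. Reads of overlapping or near-identical genes cannot be separated.

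Of 78028 rows, 48828 were matched to GENCODE M21 (GRCm38) for gene type and length (union of exons), and they held 98.7% to 98.9% of the counts. TPM and CPM were computed from the deposited counts, with pseudocounts of 0.1 for TPM and 1 for CPM. No 2 libraries were alike within sampling noise (chi-square per degree of freedom of 10.7 or more). edgeR 4.0.16 (TMM, filterByExpr, Benjamini-Hochberg) and DESeq2 1.42.0 ran in R 4.3.3 and the rest in Python 3.11.15. The edgeR script was first tested on simulated data. P-values set a difference or ratio against the spread between cultures only, and do not cover errors that all libraries share.

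Members and lists were chosen with earlier results of these data known. Named genes are all canalicular and basolateral members, the 2 highest and the lowest of each other role group, the 5 most variable, the genes of the pairs, any member called, and the highest and lowest of each companion list; a few genes the rule names are not reported here. Other genes are examples of group counts or are said to be named with their values known. Promoter sequences are from RefSeq (GRCm38.p6) and their first window in that table was used.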

Additional observations from a re-analysis of the deposited data

Results flagged for a closer look

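Among the 46 members with more than 3 counts in some library, 4 had 1 library far from the other 3 by Dixon's ratio, which chance gives in about 1 of 20 groups. Abcb10 stood at 31.4 TPM in library 1 and at 30.3 TPM in the next highest, a small gap within a narrow range. Abcb9 stood at 1.54 TPM in library 4, against 1.02 TPM in the next. Abcg3, a rodent gene, stood at 0.465 TPM in library 3, from 13 counts, against 0.109 TPM. Abca13 stood at 0.182 TPM in library 1, from 37 counts, against 0.0901 TPM. None of the 12 pair ratios met this criterion.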

How the results depend on the processing

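No paired analysis was possible because the labels give a single group. The number of expressed members was 23 to 28 under the 7 alternatives. Requiring 0 counts left 1 member not detected in place of 4. The median level of the members on the log2 scale became 1.21 with a pseudocount of 1, 1.28 with CPM, 2.33 with 10 or more counts and 1.39 as a mean over members, below 3.06, 3.03, 3.97 and 2.16 for all protein-coding rows. Without a low-count filter, edgeR called 2 members for library 1 (328 of 39251 rows) and 1 for library 2 (469 rows). Leaving out a library gave 0 to 6 members for library 1, 0 to 7 for library 2, 0 to 3 for library 3 and 0 to 2 for library 4, where the fits with most calls called 2206, 2552, 1303 and 1386 of all rows. In pair ratios, 2 changed sign: Abcc5 over Abcc4 became 0.43 with CPM, where length is not divided out, and Abcc9 over Abcc8 ranged from -0.056 to 0.083 with a library left out. The other 70 recomputed pair ratios kept the sign of their mean, though Abca1 over Abca7 moved to -0.20 with CPM. The median spread stayed within 1.5 times in its 7 alternatives. Leaving out a library moved the mean of 5 detected members over 1.5 times, none of them expressed: Abca9 to 0.540 TPM and Abca8a to 0.0372 TPM without library 2, Abcg3 to 0.0729 TPM without library 3, and Abcc12 to 0.0288 TPM and Abca14 to 0.0540 TPM without library 4. Depth limits the 22 members with a mean under 1 TPM, whose levels rest on few counts.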
